A study of Mus musculus with 235 samples.

Results

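Axon guidance ligands and receptors were followed through 8 punched brain regions of adult mice 4 h after an injection of dexamethasone, a synthetic glucocorticoid. The members were chosen by gene symbol, as the semaphorins, plexins, neuropilins, ephrins, Eph receptors, Slits, Robo receptors, netrins and Unc5 receptors with a mean of at least 2 CPM (counts per 1000000 counts of a library) over all libraries. Of 27998 genes in the count table, 74 matched by symbol and 65 reached that level. They are 20 semaphorins, 9 plexins, 2 neuropilins, 7 ephrins, 11 Eph receptors, 3 Slits, 4 Robo receptors, 4 netrins, 4 Unc5 receptors and Unc50, a Golgi-associated protein that only shares the letters of the netrin receptors. Below the level lay Epha1, Epha2, Ephb4, Efna4, Ntng2, Unc5cl and 3 antisense RNAs of Plxna4. Sema3b, at 2.09 CPM, was just inside, and Ephb4, at 1.304 CPM, just outside.

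The samples came from 30 male C57Bl/6 mice aged 3 months. In 15 animals dexamethasone was given intraperitoneally at 10 mg per kg, and in the other 15 the vehicle, 0.9% saline, was given the same way. The punches carry the labels PFC, AMY, PVN and CER and, in the hippocampus, dCA1, vCA1, dDG and vDG, which the labels do not spell out. They were taken from coronal sections, and each animal gave up to 8 libraries. The 235 libraries form groups of 13 to 15 per region and treatment, and a library held between 268538 and 1451422 counts (median 742957). Counts come from the 3′ ends of transcripts, so levels are compared here between samples and not between genes.

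Guidance molecules are read by growing axons as attractive or repulsive cues, and many of them remain expressed in the adult brain, where they act at synapses, in glia and in vessels. Semaphorins signal through plexins, and most secreted class 3 semaphorins need a neuropilin as co-receptor. Ephrins and Eph receptors are both membrane bound and signal into both contacting cells, Slits repel through Robo receptors, and netrins repel through Unc5 receptors. Several members are also vascular or glial genes, among them Nrp1, a co-receptor for vascular endothelial growth factor, and Unc5b and Efnb2 of vessel endothelium. In punched tissue, fewer cells of a type and less RNA per cell cannot be told apart.

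The regional labels were set against marker genes in the vehicle libraries. Oxt, the oxytocin precursor, was at 275.1 ± 404.5 CPM in PVN (SD, n = 14) and at 34.2 ± 55.7 CPM or less on average elsewhere. Of the other 3 hypothalamic peptide genes of the list, Trh was at 57.3 ± 37.3 CPM in PVN and 10.8 ± 9.52 in AMY, Avp at 86.3 ± 142 and 49.5 ± 140.4, and Crh at 18.2 ± 10.8 and 36.2 ± 23.3 (SD, n = 14 and 15), so Crh was higher in AMY. Prox1, which marks dentate granule cells, was at 461.6 ± 253.1 CPM in dDG (SD, n = 15) but also at 520.6 ± 142.0 CPM in dCA1 (SD, n = 15), against 104.2 ± 39.5 CPM in vCA1 (SD, n = 14). The dCA1 libraries thus held Prox1 at the level of the dDG libraries. In CER, none of the 15 vehicle libraries held a count of Gabra6, a marker of granule cells of the cerebellum. The 0 counts allow up to 0.292 CPM over the group, and Pcp2, of Purkinje cells, was at 0.514 ± 1.36 CPM there (SD, n = 15). In vDG Gabra6 was at 32.9 ± 74.3 CPM and Pcp2 at 9.09 ± 24.8 (SD, n = 15), and in vCA1 they were at 18.4 ± 68.2 and 9.05 ± 33.5 (SD, n = 14). The other 2 cerebellar markers of the list, Car8 and Cbln1, were at 12.2 ± 9.15 and 10.2 ± 13.4 CPM in CER, and at 19.6 ± 6.16 and 66.8 ± 27.0 CPM in PVN (SD, n = 15 and 14). Of the 4 markers, Gabra6 and Pcp2 were thus at or near 0 in the libraries labelled CER, and Car8 and Cbln1 were not.

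Sema6d and Epha10 were the members whose levels differed between treatments in most regions. Sema6d, a transmembrane semaphorin that binds A-type plexins, lies on chromosome 2 from 124089969 to 124667770 on the plus strand (mm10 in the submitters' notes, the coordinates of the count table). Epha10, an Eph receptor without kinase activity, lies on chromosome 4 from 124880899 to 124917800 on the plus strand. The glucocorticoid receptor is a transcription factor, so the 250 bases before their RefSeq start sites (GRCm38.p6) are shown, with the hexamer of its response element, TGTTCT or AGAACA (the same site on the other strand), in capitals.
Epha10, chr4:124881535-124881784, plus strand: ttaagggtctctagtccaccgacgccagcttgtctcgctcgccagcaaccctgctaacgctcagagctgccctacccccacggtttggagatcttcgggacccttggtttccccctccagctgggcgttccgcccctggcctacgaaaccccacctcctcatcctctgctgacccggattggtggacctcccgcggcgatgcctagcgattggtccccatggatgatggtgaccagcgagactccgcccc
Sema6d, upstream start, chr2:124089719-124089968, plus strand: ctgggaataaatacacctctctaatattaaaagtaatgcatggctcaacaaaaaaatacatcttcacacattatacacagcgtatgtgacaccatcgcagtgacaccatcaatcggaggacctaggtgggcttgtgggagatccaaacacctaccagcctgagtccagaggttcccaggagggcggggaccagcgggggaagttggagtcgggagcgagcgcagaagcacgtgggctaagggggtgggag
Sema6d, downstream start, chr2:124653331-124653580, plus strand: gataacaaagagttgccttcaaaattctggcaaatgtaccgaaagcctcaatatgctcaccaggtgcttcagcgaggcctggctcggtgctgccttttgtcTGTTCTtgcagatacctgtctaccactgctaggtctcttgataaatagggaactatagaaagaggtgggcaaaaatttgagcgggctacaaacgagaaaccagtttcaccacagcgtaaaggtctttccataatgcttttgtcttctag
The only hexamer in these windows is TGTTCT at position -149 of the downstream Sema6d start, counted from the start site. RefSeq gave 72 promoters for 56 members, and 7 of them (9.72%) held the hexamer, against 16.1% of all 32851 promoters in the table. A palindromic pattern of 13 letters, GNACA and TGTNC with 3 bases between them, was in 0 of the 72 and in 0.387% of all. A match is a description of letters, and its absence says only that these letters are not in this window.

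Sema6d fell in 7 of 8 regions. In AMY it ran from 55.7 to 118 CPM with a median of 70.6 in the 15 vehicle libraries, and from 37.8 to 67.7 with a median of 47.1 in the 15 dexamethasone libraries. In CER the vehicle libraries ran from 56.8 to 124 CPM (median 82.8) and the treated ones from 34.1 to 77.4 (median 56.5). All 15 treated libraries of either region lay below the vehicle median, although the highest treated values still overlapped the lowest vehicle values. The log2 fold changes were -0.62 ± 0.11 in AMY (SE, edgeR quasi-likelihood test, adjusted p = 0.000177) and -0.61 ± 0.11 in CER (adjusted p = 8.44e-05). The other called regions gave -0.62 in dCA1, -0.57 in vDG, -0.55 in dDG, -0.46 in PVN and -0.43 in vCA1, with edgeR adjusted p-values of 0.00105, 0.00272, 0.000604, 0.00411 and 0.0172. The vCA1 call was lost in 2 of 9 alternative fits, with adjusted p-values up to 0.177 by edgeR, and those of the other 6 regions in 0. In PFC, where Sema6d was lowest in vehicle animals, the medians were 37.3 and 33.4 CPM and the difference did not pass (-0.24 ± 0.13, adjusted p = 0.407 by edgeR).

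Epha10 rose in 6 of 8 regions. In vCA1 the vehicle libraries ran from 29.0 to 65.2 CPM (median 45.2) and the dexamethasone libraries from 56.4 to 117 (median 88.8), and 14 of the 15 treated libraries lay above every vehicle library. The dDG libraries went from 42.4 to 114.7 CPM (median 74.5) in vehicle animals and from 86.4 to 209 (median 135.8) in treated ones, and PFC from 57.9 to 128 (median 77.9) to 77.8 to 222 (median 137). In dDG 12 of 15 and in PFC 10 of 14 treated libraries lay above every vehicle library, while the ranges overlapped, in PFC from 77.8 to 128 CPM. In log2 units the changes were 0.97 ± 0.11 in vCA1 (SE, adjusted p = 1.04e-08 by edgeR), 0.92 ± 0.14 in dDG, 0.77 ± 0.12 in PFC, 0.67 ± 0.13 in vDG, 0.61 ± 0.12 in dCA1 and 0.59 ± 0.12 in AMY. CER and PVN stood apart: their medians were 81.5 against 81.1 CPM and 68.7 against 71.3 CPM, and the changes were 0.02 ± 0.10 and 0.10 ± 0.13, with 95% intervals that end at 0.22 and 0.34. The interaction test over all libraries, which asks whether the response differs among the 8 regions, called Epha10 (F = 7.66, adjusted p = 2.09e-05 by edgeR).

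Nrp1, on chromosome 8 from 128359073 to 128505462 on the plus strand, fell in 3 regions. In CER it ran from 19.4 to 90.4 CPM (median 52.7) in vehicle libraries and from 17.3 to 47.9 (median 28.5) after dexamethasone, and in PVN from 41.1 to 91.7 (median 54.5) to 17.6 to 50.6 (median 38.5). In AMY the medians were 41.2 and 25.8 CPM. All treated libraries of CER and PVN lay below the vehicle median, with overlap at the low end of the vehicle groups. The log2 changes were -0.76 ± 0.16 in CER, -0.71 ± 0.17 in AMY and -0.60 ± 0.12 in PVN (SE, edgeR adjusted p = 0.00117, 0.00376 and 0.00064). In PFC the medians were 40.7 and 30.8 CPM, and the change of -0.33 ± 0.12 did not pass (adjusted p = 0.107 by edgeR). In the hippocampal punches, where vehicle Nrp1 was highest, the changes were -0.32 ± 0.15 in vDG, -0.07 ± 0.13 in vCA1, 0.07 ± 0.11 in dDG and 0.10 ± 0.12 in dCA1, none of them called. Before adjustment, 5 regions had a p under 0.05, the 3 called ones and PFC and vDG. The interaction test called Nrp1 (F = 5.72, adjusted p = 0.00106 by edgeR). It called these 2 of the 56 members tested, against 1.27% of all 11053 genes. The member with the next smallest p, Sema4c, had an adjusted p of 0.0997, and 0.0374 without libraries of an RNA integrity number under 4.

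Some endothelial and microglial markers were also lower after dexamethasone, in every region. Of 8 endothelial markers 5 were tested in each region, and Flt1 and Slco1a4 were lower in all 8. The other 3 were called in 0 regions, with log2 changes from -0.41 to 0.09 for Pecam1, from -0.22 to 0.41 for Esam and from 0.02 to 0.33 for Ly6c1. The list summed to between 226.3 and 670.4 CPM in vehicle libraries of CER and to between 211.3 and 549.6 CPM in treated ones, and in dDG, where Nrp1 was not called, to between 274.0 and 539.3 CPM and between 183.5 and 324.4 CPM. Of 6 microglial markers, 5 were tested in AMY and PFC and 4 in the other regions, and Cx3cr1 and P2ry12 were lower in all 8. Csf1r, with changes from -0.19 to 0.10, and C1qa, from -0.30 to 0.01, were tested in all 8 regions and called in 0, as was Tmem119 in AMY and PFC. The microglial list summed in CER to between 160.9 and 381.8 CPM in vehicle libraries and between 78.3 and 158.1 CPM in treated ones. The neuronal list had 5 markers tested and 0 called in each region. The part of these cell types in the Nrp1 values was not tested.

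**Figure D1:**
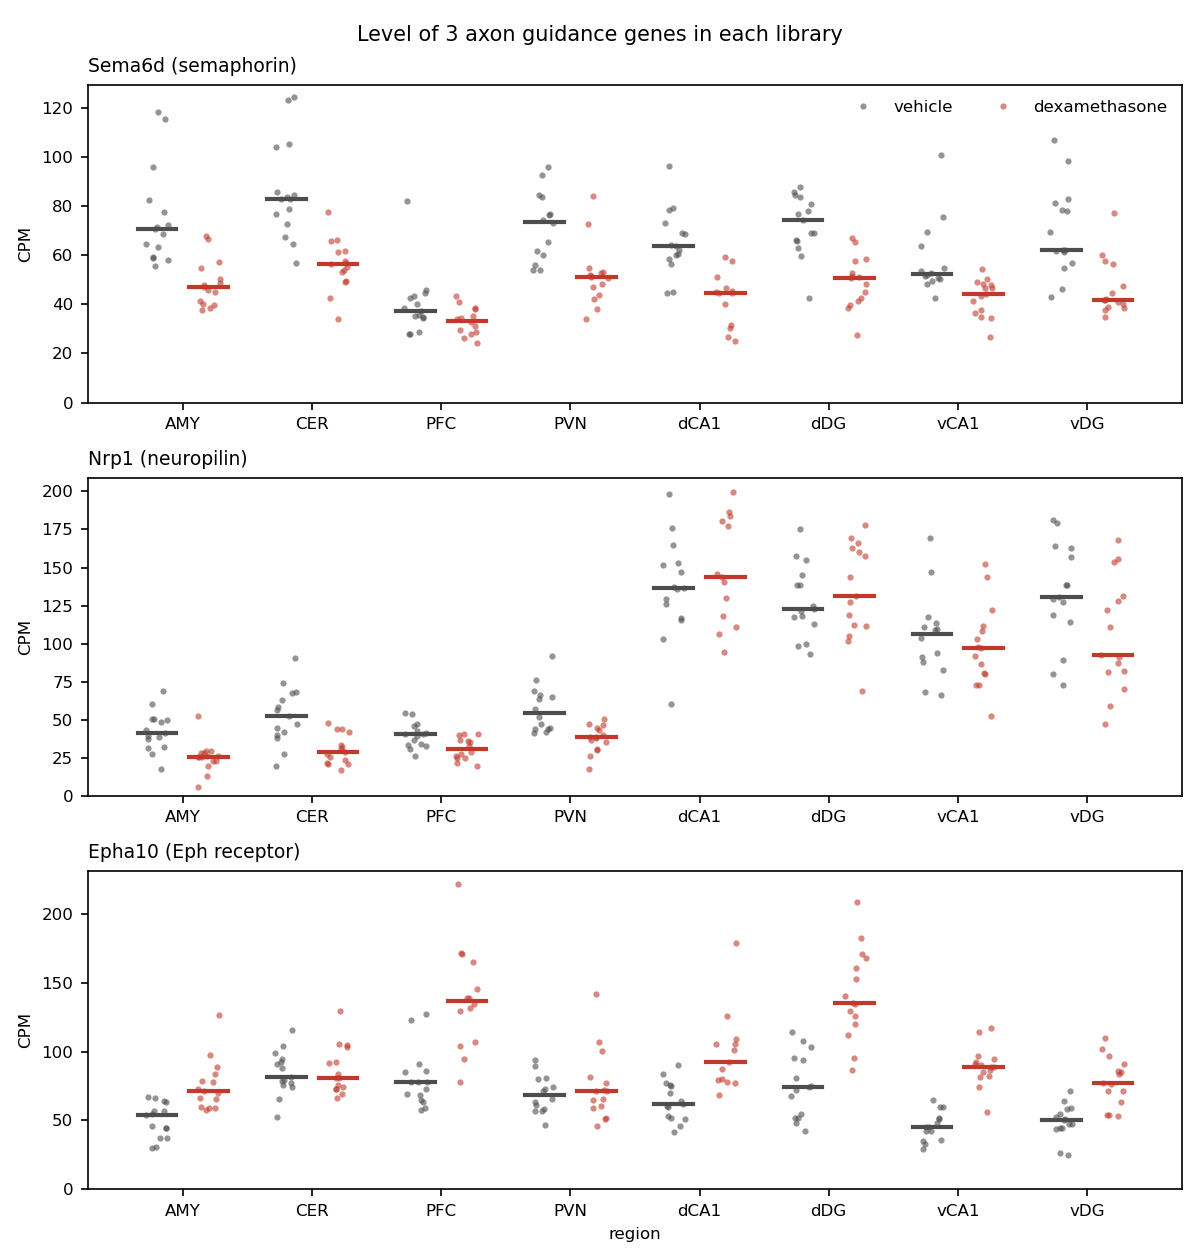
Level in CPM of Sema6d, Nrp1 and Epha10 in every library (dots, with horizontal scatter for legibility), by region and treatment, with the group median as a bar. Sema6d medians were lower after dexamethasone in all 8 regions, Nrp1 medians were lower in AMY, CER, PFC, PVN, vCA1 and vDG, of which AMY, CER and PVN were called, and not in dCA1 or dDG, and Epha10 medians of treated CER and PVN libraries lay beside those of vehicle libraries.

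Across the family, 52 members passed the filter on low counts in at least 1 region and 31 in all 8, which gave 331 tests. There were 36 calls at an adjusted p under 0.05, 10 higher and 26 lower, on 16 members, and 0 members were called in opposite directions in different regions. The share of all genes called in at least 1 region was not computed, so these totals and those by family have no background beside them. The 13 members tested in no region were Efna1, Epha6, Epha8, Ntn1, Ntn4, Robo4, Sema3b, Sema3d, Sema3f, Sema3g, Sema4d, Sema5b and Sema6c. All 8 regional tests use the same animals.

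Region by region, the counts of members are given beside the share of all tested genes called in the same direction. AMY had 1 of 39 members higher (3.54% of all genes) and 4 lower (2.08%). CER had 1 of 41 higher (3.90%) and 3 lower (2.28%), and PFC 2 of 42 higher (3.86%) and 5 lower (2.28%). PVN had 1 of 41 higher (3.57%) and 4 lower (2.06%). In the hippocampal punches, dCA1 had 1 of 38 higher (2.57%) and 2 lower (2.11%), dDG 1 of 41 higher (2.33%) and 1 lower (1.37%), vCA1 2 of 43 higher (3.41%) and 5 lower (2.04%), and vDG 1 of 46 higher (2.64%) and 2 lower (1.29%). The median log2 change of the tested members lay between -0.10 in vDG and -0.02 in PFC, where all genes had medians between -0.02 and 0.00.

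**Figure D2:**
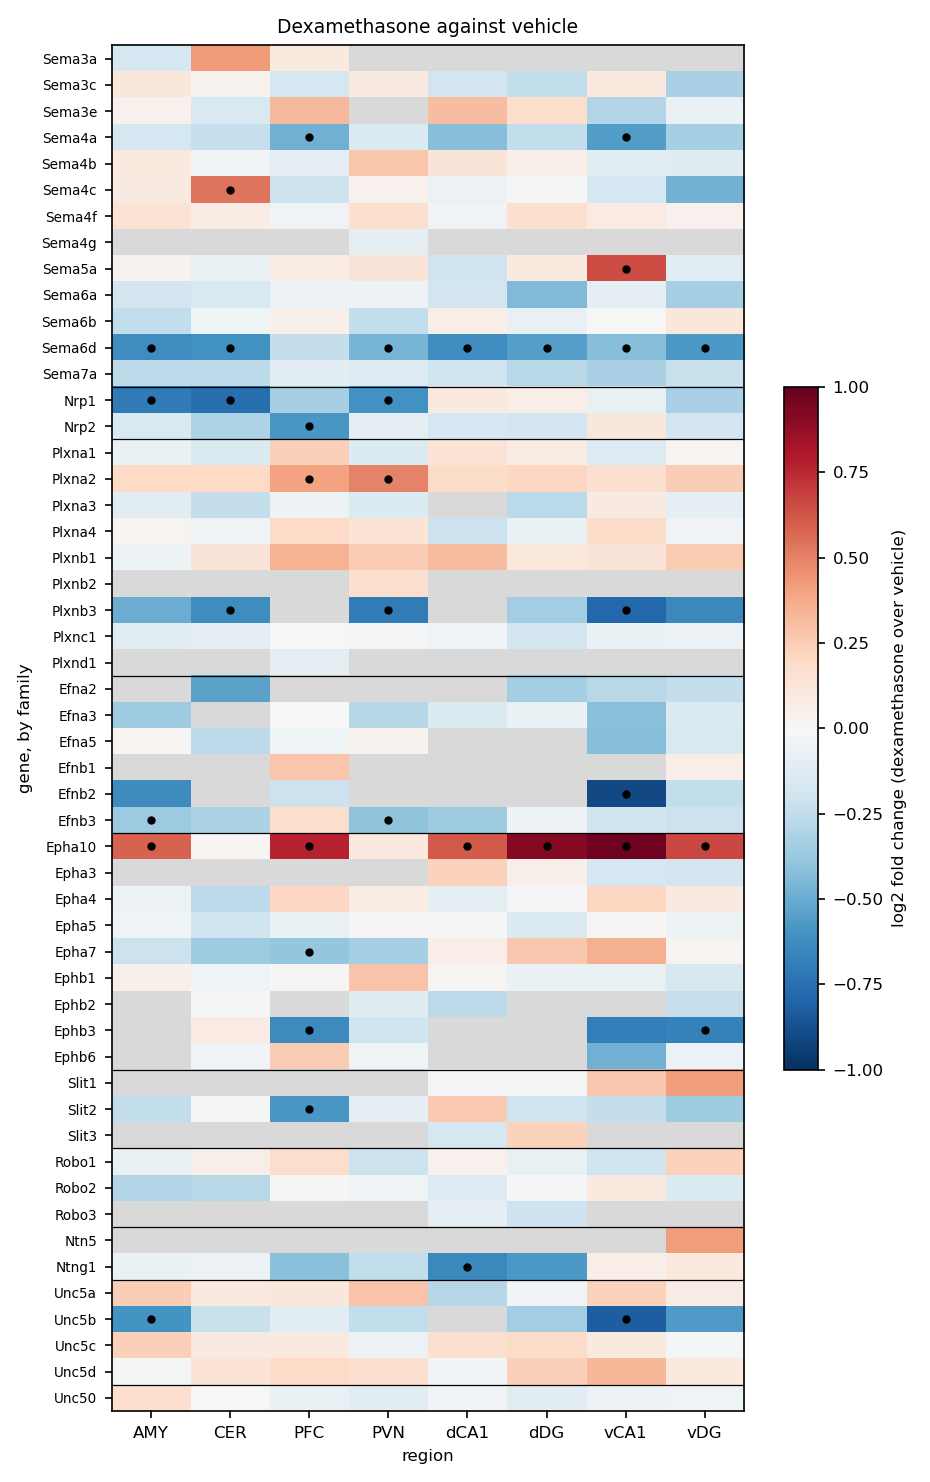
Log2 fold change of dexamethasone over vehicle for the 52 members tested in at least 1 region (rows, by family) in 8 regions (columns), with black dots at an adjusted p under 0.05 and grey where a gene did not pass the low-count filter. Sema6d and Epha10 form the rows with most dots, 7 and 6, and 26 of the 36 dots are on lower values.

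Among the semaphorins, 4 of the 13 tested in any region were called. Sema4a, a membrane-bound class 4 semaphorin, fell in PFC from 43.2 to 78.9 CPM (median 60.0) to 27.2 to 53.7 (median 44.9), a log2 change of -0.48 ± 0.10 (edgeR adjusted p = 0.00148), and in vCA1 the change was -0.56 ± 0.13. Sema4c, a ligand of plexin B2, was higher in CER, where the medians were 18.9 and 28.3 CPM (0.54 ± 0.16, edgeR adjusted p = 0.0253, and 0.0541 with punching date and plate as factors). Sema5a, a transmembrane semaphorin that binds plexin B3, was higher in vCA1 with medians of 55.5 and 92.5 CPM and overlapping ranges (0.65 ± 0.20, edgeR adjusted p = 0.0404). The call on Sema5a was lost in 4 of 9 alternative fits, among them those with punching date and plate as factors, without the libraries absent from the authors' tables, and with the covariate described next. Sema4c and Sema5a each passed in 1 region only.

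In vCA1 the level of dentate marker RNA differed between treatments. The dentate level, the mean log2(CPM + 1) of 7 dentate granule cell markers, was 3.77 ± 0.75 in vehicle libraries (SD, n = 14) and 4.64 ± 0.78 in treated ones (SD, n = 15), and Dsp and Npnt of that list were called higher. The list summed to between 121.0 and 343.7 CPM in vehicle libraries and between 131.6 and 856.2 CPM in treated ones. Of 6 choroid plexus markers 1 was tested in vCA1 and called lower (-2.27), with list sums up to 1474 CPM in vehicle and 101.6 in treated libraries. The 3 CA1 pyramidal cell markers were called in 0, with a median log2 change of -0.50 and median sums of 322.5 and 259.7 CPM. The part of these 2 lists in the vCA1 calls was not tested. With the dentate level as a covariate, 2 of the 7 calls in vCA1 remained, those on Epha10 and Efnb2, and Sema4a, Sema5a, Sema6d, Plxnb3 and Unc5b did not pass. Sema5a then changed by 0.04, with an adjusted p of 0.983 by edgeR. In the same fit Unc5b was at -0.69 (-0.82 without the covariate), Plxnb3 at -0.57 (-0.79), Sema4a at -0.37 (-0.56) and Sema6d at -0.37 (-0.43), with edgeR adjusted p-values between 0.136 and 0.23. Vehicle levels of Sema5a were 275.5 ± 135.5 CPM in dDG (SD, n = 15) and 64.4 ± 24.3 CPM in vCA1 (SD, n = 14).

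Plexins were called in both directions and neuropilins only lower in the regional tests. Plxna2, a receptor for class 3 and class 6 semaphorins, rose in PFC from 83.8 to 139 CPM (median 113) to 90.4 to 186 (median 143), and in PVN from 44.5 to 90.1 (median 61.2) to 63.7 to 178 (median 78.8). The log2 changes were 0.40 ± 0.08 and 0.49 ± 0.11 (edgeR adjusted p = 0.000784 and 0.00216), and Plxna2 was positive, between 0.16 and 0.24, in the other 6 regions without passing. Plxnb3, the receptor of Sema5a, fell in CER, where the ranges were 38.9 to 70.7 CPM (median 54.6) and 25.1 to 53.5 (median 34.1). The changes were -0.62 ± 0.11 in CER, -0.70 ± 0.17 in PVN and -0.79 ± 0.18 in vCA1 (edgeR adjusted p = 0.000115, 0.00632 and 0.00349). Plxnb3 is known from oligodendrocytes, and of 6 markers of these cells 0 were called in CER, PVN or vCA1. In CER, the oligodendrocyte list summed to between 6918 and 15603 CPM in vehicle libraries and between 10201 and 16330 CPM in treated ones. In vCA1 the sums ran from 2540 to 6544 CPM (median 4661) in vehicle libraries and from 1948 to 7621 (median 3437) in treated ones, and in PVN from 3802 to 6892 (median 5156) and from 2438 to 7804 (median 4991). The median log2 change of the list was -0.07 in CER, -0.15 in PVN and -0.40 in vCA1, and its part in the Plxnb3 values was not tested. Nrp2, a co-receptor for Sema3f, fell only in PFC by this test, with medians of 33.6 and 19.9 CPM (-0.58 ± 0.15, edgeR adjusted p = 0.00675), but the difference among regions was not called for it.

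Ephrins and their receptors gave 12 of the 36 calls, 6 of them on Epha10. Efnb2, a transmembrane ephrin of arteries and neurons, went in vCA1 from 17.9 to 47.9 CPM (median 35.6) to 8.35 to 36.5 (median 14.7), a log2 change of -0.91 ± 0.18 (edgeR adjusted p = 0.000495). Efnb3, a midline barrier for corticospinal axons, was lower in AMY (medians 123.2 and 86.9 CPM, -0.36 ± 0.11) and in PVN (medians 73.2 and 49.9 CPM, -0.40 ± 0.12). The adjusted p of Efnb3 in AMY was 0.039 by edgeR, and 0.0641 without libraries of an RNA integrity number under 4. Ephb3 fell in PFC (medians 25.3 and 17.1 CPM, -0.64 ± 0.17) and in vDG (17.6 and 10.5 CPM, -0.67 ± 0.20). The vDG call, with an adjusted p of 0.0453 by edgeR, missed the threshold in 3 alternatives, with values up to 0.0622. Epha7, a receptor of A-type ephrins, was lower in PFC, where the medians were 181 and 149 CPM (-0.39 ± 0.10, edgeR adjusted p = 0.00752).

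Among Slits, Robo receptors, netrins and Unc5 receptors, 4 regional calls were made, all lower, on Slit2, Ntng1 and Unc5b. Slit2 fell in PFC, with ranges of 21.4 to 67.0 CPM (median 44.2) and 14.5 to 43.7 (median 32.1) and a change of -0.58 ± 0.15 (edgeR adjusted p = 0.00967). No Robo receptor was called in any region: Robo1 and Robo2 were tested in all 8, Robo3 in dCA1 and dDG. Ntng1, a netrin held to the membrane by a lipid anchor that binds Lrrc4c, was lower in dCA1 with medians of 117 and 71.5 CPM (-0.64 ± 0.18, edgeR adjusted p = 0.0237, and -0.47 with an adjusted p of 0.0793 when the dentate level was a covariate). That level was, in dCA1, 6.67 ± 0.51 in vehicle and 6.24 ± 0.89 in treated libraries (SD, n = 15 and 13), with list sums of 570.9 to 1579 CPM (median 1206) and 162.0 to 1519 CPM (median 866). Unc5b fell in AMY (medians 44.5 and 37.2 CPM, -0.60 ± 0.17) and in vCA1 (27.5 and 17.1 CPM, -0.82 ± 0.21), with edgeR adjusted p-values of 0.0217 and 0.0102. Endothelial markers in these regions moved as given above, with list sums of 370.5 to 613.9 CPM and 197.0 to 384.3 CPM in vehicle and treated AMY libraries, and 292.2 to 597.3 CPM and 222.2 to 429.0 CPM in vCA1. Their part in the Unc5b and Efnb2 values was not tested.

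Counts were also summed over the 8 regions of an animal, for the 13 vehicle and 13 dexamethasone animals with all 8. These sums hold the same libraries as the regional tests, so they are another reading of the same data with more counts per gene, between 4760039 and 7076142 per animal. A region's share of the sum differed most between treatments for dCA1, at 11.7% ± 3.67 in vehicle and 13.5% ± 2.62 in treated animals (SD, n = 13 each). All 65 members passed the low-count filter, and 18 were called, 3 higher and 15 lower. Of all 13375 genes tested, 9.74% were called higher and 8.82% lower. The median log2 change was -0.06 over the members and -0.01 over all genes. Of the 18 called members, 10 were also called in a region and 8 were not.

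Ephrins fell in the sums, with 6 of 7 called and Efnb1 not. Efna1, an A-type ephrin tested in no region, ran from 4.53 to 9.26 CPM (median 7.61) in vehicle animals and from 2.76 to 6.01 (median 4.43) in treated ones, a change of -0.69 ± 0.12 (SE, edgeR adjusted p = 2.22e-05). All 13 treated animals lay below the vehicle median. The others were Efnb2 (-0.35 ± 0.08), Efna2 (-0.25 ± 0.08), Efnb3 (-0.23 ± 0.04), Efna5 (-0.23 ± 0.07) and Efna3 (-0.21 ± 0.07), with edgeR adjusted p-values between 7.94e-05 and 0.0301, while Efnb1 was at 0.01 ± 0.08. In the mean of the 8 regional differences by limma-voom, which gives each region the same weight, Efna5 did not pass (adjusted p = 0.188). Efna2 and Efna5 each lost their call in 1 of 5 alternative fits, Efna2 with the replicate number as a block (adjusted p = 0.0636 by edgeR). Efna3, Efnb2 and Efnb3 lost it in 0 of 5. Efna1 kept its call in 4 of 4 and was below the filter of the limma-voom fit. Efna3 shares 14.1% of its exon bases with Gm15998 on the other strand, and the strand setting of the counting is not given in the sources used here.

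Eph receptors were split: Epha10 rose and 3 others fell. Epha10 ran from 54.4 to 71.6 CPM (median 64.1) in vehicle animals and from 83.0 to 115.1 (median 96.4) in treated ones, without overlap, a change of 0.61 ± 0.05 (edgeR adjusted p = 4.46e-12). Ephb3 went from 15.6 to 23.6 CPM (median 19.1) to 9.15 to 18.4 (median 12.6), a change of -0.56 ± 0.09. Epha8 (-0.54 ± 0.15) and Ephb2 (-0.25 ± 0.08) were lower with overlapping ranges (edgeR adjusted p = 0.00901 and 0.0286). With the replicate number as a block Ephb2 did not pass (adjusted p = 0.0572 by edgeR). The other 7, Epha3, Epha4, Epha5, Epha6, Epha7, Ephb1 and Ephb6, did not pass.

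Of the 20 semaphorins, Sema6d, Sema4a and Sema7a fell and 17 did not pass. Sema6d ran from 52.8 to 73.2 CPM (median 65.6) in vehicle animals and from 37.8 to 51.7 (median 45.7) in treated ones, again without overlap (-0.50 ± 0.05, edgeR adjusted p = 5.66e-10). Sema4a changed by -0.34 ± 0.06, and Sema7a, a lipid-anchored semaphorin that binds plexin C1, by -0.22 ± 0.06 with 12 of 13 treated animals below the vehicle median. Among plexins, Plxna2 rose by 0.27 ± 0.04 and Plxnb1, the receptor of Sema4d, by 0.19 ± 0.06, while Plxnb3 changed by -0.55 ± 0.08 (edgeR adjusted p = 9.41e-07, 0.016 and 1.48e-06). Unc5b (-0.45 ± 0.08) and Ntng1 (-0.29 ± 0.10, edgeR adjusted p = 0.0386, and 0.0555 by DESeq2) were lower, and none of the Slits, Robo receptors or neuropilins passed. The sums give regions weight by their counts, and Nrp1, whose counts come mostly from the hippocampal punches, changed by -0.11 ± 0.08 in them. Its mean of the 8 regional differences was -0.33 ± 0.06 (limma adjusted p = 3.59e-07).

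Markers of vessels and glia moved in the same sums. Of 8 endothelial markers, 6 were lower (Cldn5, Tek, Flt1, Slco1a4, Cdh5 and Pecam1), Esam (0.15 ± 0.06) and Ly6c1 (0.16 ± 0.07) did not pass, and the list summed to between 362.3 and 442.6 CPM in vehicle animals and between 242.2 and 311.5 CPM in treated ones. Microglial markers were lower in 4 of 6 (Cx3cr1, P2ry12, Aif1 and Tmem119) and not in Csf1r or C1qa, with sums of 253.9 to 340.0 CPM and 134.9 to 166.9 CPM. Of 6 oligodendrocyte markers, Mog, Mag and Cnp were lower, and the list sums overlapped, at 4320 to 6549 CPM and 4018 to 6280 CPM. Oligodendrocyte precursors had 2 of 3 markers lower, Cspg4 (-0.46 ± 0.09) and C1ql1 (-0.34 ± 0.10), and mural cells 2 of 5, Acta2 (-0.41 ± 0.12) and Vtn (-0.22 ± 0.06). Of 6 astrocyte markers, Aqp4 (-0.27 ± 0.06) and Gja1 (-0.15 ± 0.04) were lower and Aldh1l1 (0.35 ± 0.08) higher. In these 6 lists 0 genes were at 0 counts. Neuronal markers were called in 0 of 5, with list sums of 5018 to 5676 CPM and 4867 to 5633 CPM. The part of these cell types in the lower ephrins, Plxnb3 and Unc5b was not tested.

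**Figure D3:**
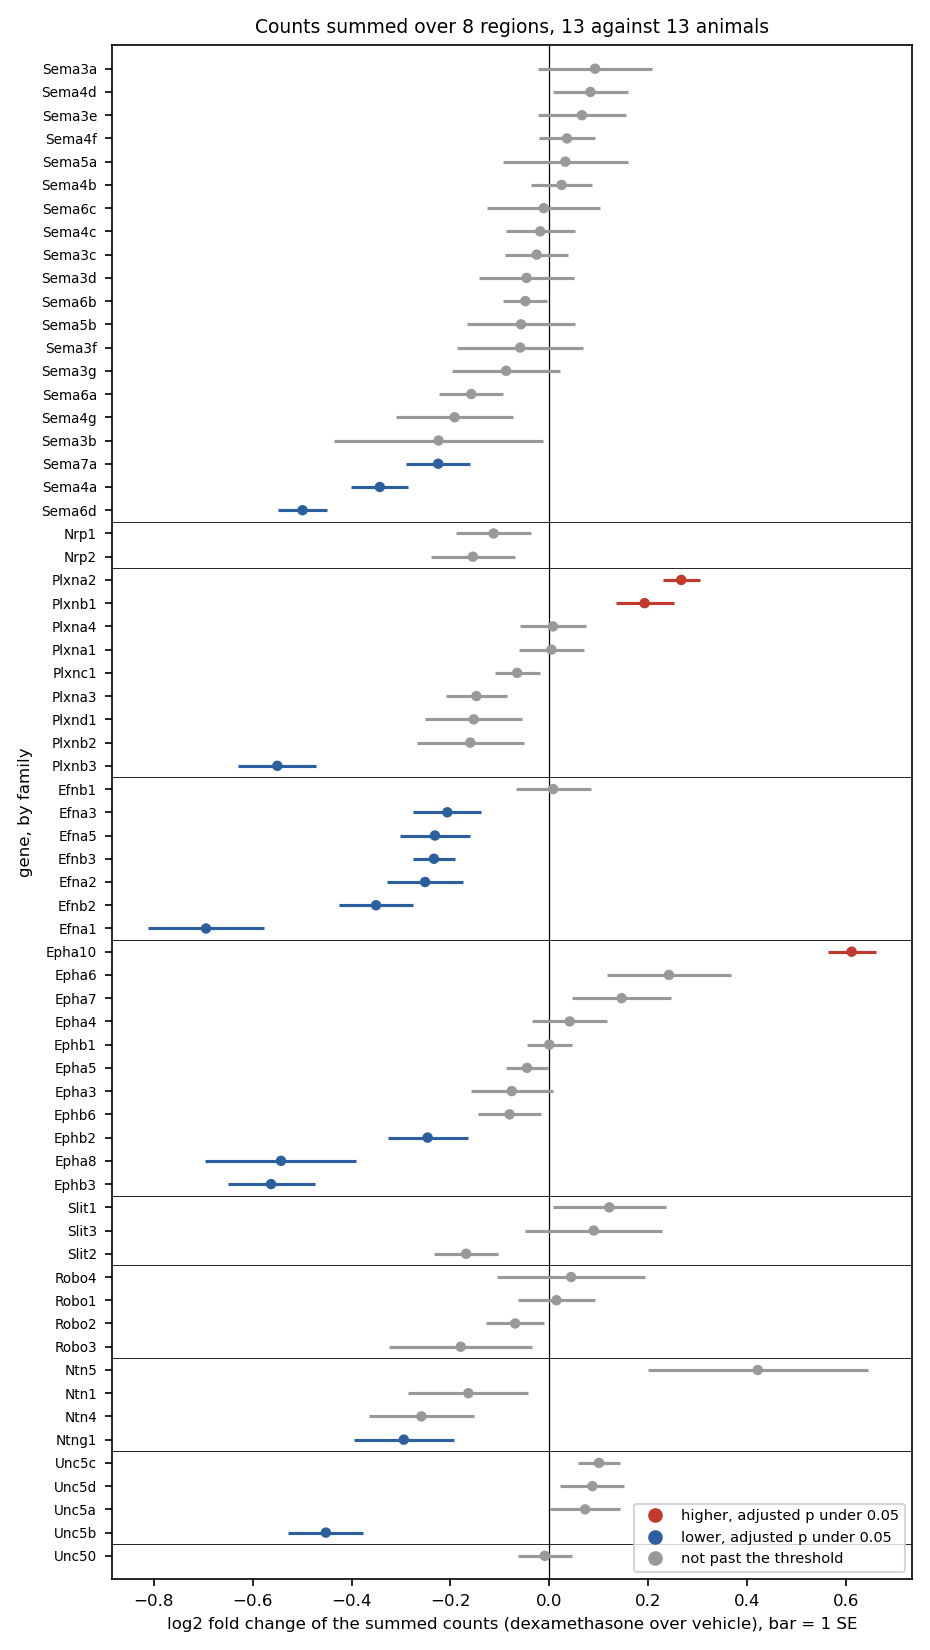
Log2 fold change of counts summed over 8 regions, dexamethasone over vehicle, for the 65 members by family, with bars of 1 SE (13 animals each). Epha10, Plxna2 and Plxnb1 lie on the higher side in red, and 15 members on the lower side in blue, 6 of them ephrins.

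Genes that work with guidance receptors inside or beside the cell were taken from a list of 60. In the sums 58 were tested, and 6 were higher and 7 lower, where 9.74% and 8.82% of all genes were, so the counts lie near the background. Rgma, a repulsive guidance molecule that binds neogenin, fell in 8 of 8 regions, by log2 changes from -0.69 ± 0.12 in PFC to -0.43 ± 0.11 in vCA1. Farp2, an exchange factor that links plexin A and neuropilin to Rac, rose in 6 regions, most in PVN with 1.22 ± 0.17, and was positive in dCA1 (0.48 ± 0.19) and vCA1 (0.52 ± 0.18) without passing. Trio, an exchange factor used by the netrin receptor Dcc, rose in 5, most in PFC with 0.59 ± 0.09, and was at 0.07 ± 0.10 in PVN.

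Mical3, of the monooxygenase family whose Mical1 acts below plexins, rose in AMY, CER and PVN by 0.71 ± 0.13, 0.73 ± 0.12 and 0.51 ± 0.11. Dpysl5, a collapsin response mediator protein, rose in PFC, dCA1 and dDG by 0.79 ± 0.20, 0.89 ± 0.20 and 0.76 ± 0.20. Chn2, a Rac inactivator, fell in AMY (-0.29 ± 0.08), CER (-0.32 ± 0.10) and vCA1 (-1.19 ± 0.32). Of the Flrt proteins, which bind Unc5 receptors, Flrt1 fell in AMY and vCA1, Flrt2 fell in PVN, and Flrt3 rose in vCA1. The vCA1 values stand beside the dentate marker level given above.

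Regional levels were compared in the vehicle libraries alone, with the animal as a term. The members differ widely between regions: 51 of 54 tested were called, where 73.3% of all 10451 genes were. The mean RNA integrity number of vehicle libraries was 7.75 ± 0.50 in PFC (SD, n = 15) and between 5.91 and 6.69 in the other regions, and its part in the regional levels was not tested. Over all 65 members, the highest mean was in dCA1 for 12, in dDG and vDG for 10 each, in CER for 9, in PVN for 7, in AMY and vCA1 for 6 each and in PFC for 5. The 12 smallest p-values belonged to Epha7, Epha4, Sema5a, Nrp1, Plxna4, Robo3, Unc5a, Slit1, Ntng1, Efnb2, Efnb3 and Sema4a, and the first 8 of these had their highest mean in dCA1 or dDG.

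Receptors of the Eph family led this order. Epha7 had means of 575 ± 150 CPM in dCA1 and 559 ± 184 in dDG (SD, n = 15 each), then 189 in PFC, 159 in vDG, 139 in vCA1 and between 70.7 and 72.7 in CER, AMY and PVN (edgeR F = 141, adjusted p = 6.12e-49). Epha4 was at 553 ± 129 CPM in dCA1 and 503 ± 154 in dDG, and at 122 ± 28.1 in PVN, the lowest. The dCA1 and dDG values of both receptors overlap within their spread. Efnb2, a ligand of Eph receptors, had its highest means in PFC (40.5 ± 8.03 CPM), vCA1 (33.4 ± 9.25) and vDG (31.7 ± 8.70), and its lowest in dCA1 (10.6 ± 5.55). Efnb3 was highest in CER, at 122.7 CPM, and lowest in PFC, at 36.8.

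Among semaphorin genes, Sema5a was at 307 ± 88.6 CPM in dCA1 and 275.5 ± 135.5 in dDG, and at 42.5 in PFC, the lowest. Sema4a was highest in PVN, at 67.1 CPM, and lowest in dDG, at 23.8. Both neuropilins and Plxna4 were highest in dCA1: Nrp1 at 137 ± 32.4 CPM against 40.1 ± 8.02 in PFC, and Plxna4 at 216 CPM against 71.7 in PFC. Slit1 was at 33.0 CPM in dCA1 and 5.03 in CER, Unc5a at 80.3 in dCA1 and 19.5 in PVN, and Robo3, a receptor of commissural axons, at 34.0 ± 17.8 in dDG and 0.751 ± 0.729 in PVN. Ntng1 was highest in PVN, where libraries ran from 113 to 442 CPM (median 277), while those of PFC ran from 30.1 to 68.2 (median 44.5), without overlap. The 3' ends of Robo3 and its neighbour Robo4 face each other 1646 bases apart, and those of Unc5a and Hk3 overlap, with 34 exon bases shared on opposite strands.

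At the other end of the order were Sema4d (8.95 to 11.8 CPM), Unc50 (35.3 to 42.0) and Sema4b (15.4 to 21.5), the 3 members not called, and Plxnb2 (8.97 to 15.0), called with an adjusted p of 0.0197 by edgeR. Unc50, which is not a guidance gene, was thus among the members with the most even level.

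The remaining semaphorins were ordered differently from Sema5a. The secreted Sema3a was highest in AMY, where libraries ran from 15.1 to 42.4 CPM (median 25.1), and lowest in dCA1, where they ran from 0 to 7.61 (median 1.49), without overlap. Means of Sema3c ran from 19.0 CPM in vDG to 35.9 in AMY, of Sema3d from 5.19 in dCA1 to 13.0 in vDG, and of Sema3e, the ligand of plexin D1, from 7.49 in PVN to 49.4 in vCA1. Sema3b (0.700 in vCA1 to 6.06 in dDG), Sema3f (1.74 in dCA1 to 7.85 in CER) and Sema3g (5.05 in vDG to 8.33 in dDG) had few counts in all regions. In class 4 the regional means ran from 15.7 in dDG to 25.2 in vDG for Sema4c, from 20.0 in CER to 29.7 in dCA1 for Sema4f and from 4.58 in dCA1 to 19.1 in PVN for Sema4g. Sema5b lay between 2.83 in PFC and 7.81 in AMY.

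Class 6 semaphorins did not share 1 pattern: Sema6a was lowest in dCA1 (25.6 CPM) and highest in CER (66.3), Sema6b lowest in CER (23.7) and highest in dCA1 (36.9), Sema6c ran from 6.29 in AMY to 9.54 in dCA1, and Sema6d from 39.9 in PFC to 86.2 in CER. Sema7a ran from 27.3 in PVN to 70.0 in dDG, and its receptor Plxnc1 from 38.4 in dCA1 to 96.9 in PVN. The other plexins had ranges of 45.2 in AMY to 86.0 in vCA1 (Plxna1), 62.3 in PVN to 122 in vCA1 (Plxna2) and 15.2 in dCA1 to 31.4 in PVN (Plxna3). For the B and D plexins they were 33.4 in PFC to 56.4 in AMY (Plxnb1), 14.3 in PFC to 54.8 in CER (Plxnb3) and 3.61 in CER to 13.5 in PFC (Plxnd1). Nrp2 ran from 31.3 in PFC to 85.1 in dCA1.

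Among the other ephrins, Efna5 had its lowest mean in dCA1 (6.98 CPM) and its highest in PVN (33.2), the regions where Epha4 was highest and lowest. Efna1 ran from 4.14 in PVN to 10.4 in vDG, Efna2 from 10.9 in PFC to 19.3 in dDG, Efna3 from 14.4 in CER to 39.7 in vCA1 and Efnb1 from 4.72 in CER to 13.7 in vDG. Of their receptors, Epha3 ran from 6.28 in PVN to 22.9 in vDG, Epha5 from 152 in CER to 280.2 in dDG, Epha6 from 2.83 in CER to 14.8 in dDG, Epha8 from 0.914 in dCA1 to 4.68 in PVN and Epha10 from 45.9 in vCA1 to 84.7 in CER. The B receptors ran from 42.3 in PVN to 85.2 in CER for Ephb1, 10.8 in AMY to 19.4 in dDG for Ephb2, 16.5 in PVN to 25.3 in PFC for Ephb3 and 12.6 in AMY to 36.3 in PFC for Ephb6.

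Slit2, at 26.6 CPM in dCA1 and 53.4 in vDG, was lowest where Slit1 was highest, and Slit3 ran from 2.60 in PVN to 18.3 in dCA1. Robo1 ran from 19.7 in vDG to 33.9 in AMY, Robo2 from 42.4 in CER to 93.5 in dDG, and Robo4, a receptor of endothelium, from 2.89 in vDG to 5.73 in vCA1. Ntn1 ran from 1.79 in dDG to 9.07 in CER and Ntn4 from 3.85 in AMY to 8.13 in vDG. Ntn5 was at 13.0 ± 7.76 CPM in vDG (SD, n = 15), with libraries from 0 to 27.5, and at 3.60 or less elsewhere, and 26.0% of its exon bases overlap Sec1 on the other strand. Up to 71.35% of the exon bases of Ntn5 also overlap other annotated genes on its own strand, so its counts are uncertain. Unc5b ran from 15.0 in PFC to 65.0 in CER, Unc5c from 67.9 in PFC to 129 in vDG and Unc5d from 23.4 in dDG to 67.8 in AMY.

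**Figure D4:**
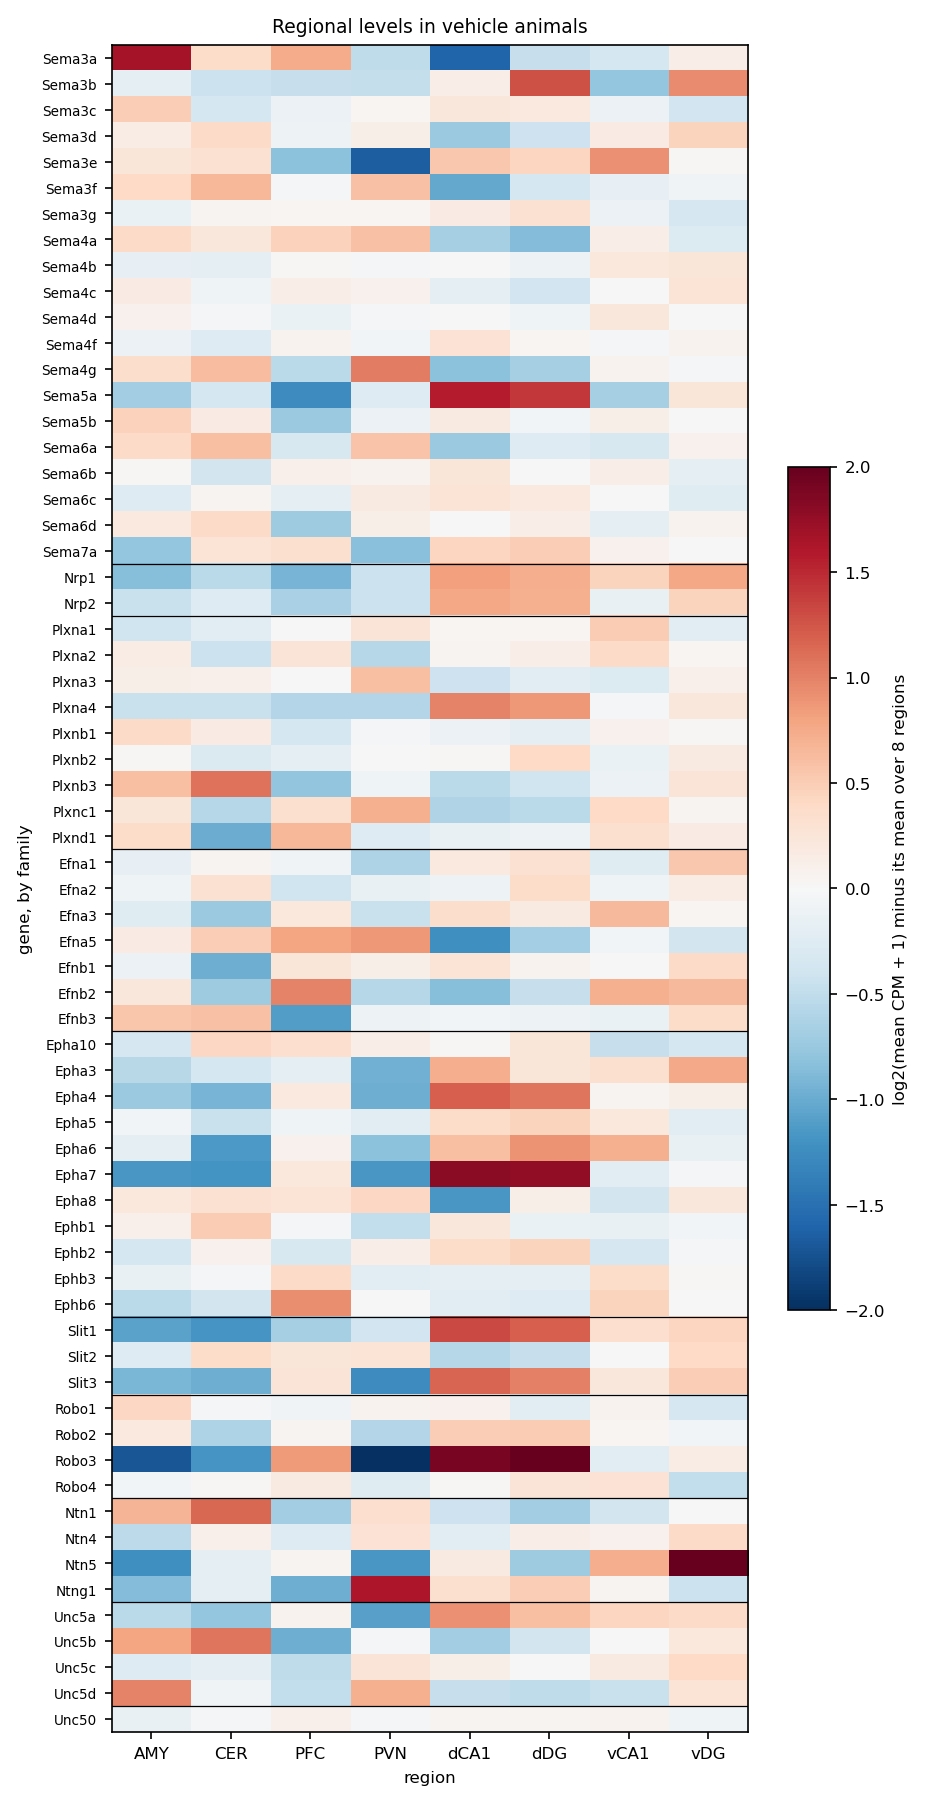
Vehicle level of the 65 members in 8 regions, as log2(mean CPM + 1) minus the member's mean over the regions, with colours saturated at 2 in either direction. Epha7, Sema5a, Slit1 and Robo3 stand out in dCA1 and dDG, Ntng1 in PVN and Sema3a in AMY.

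Dorsal and ventral hippocampal punches of the same vehicle animals were then compared. Between dCA1 and vCA1, 27 of 54 members were called, 14 higher in dCA1 (10.8% of all genes) and 13 higher in vCA1 (11.2%). Higher in dCA1 were Epha7 (log2 change of vCA1 over dCA1 -2.06 ± 0.16), Sema5a (-2.24 ± 0.18), Epha4 (-1.16 ± 0.13), Plxna4 (-1.05 ± 0.12) and Robo3 (-2.27 ± 0.31), while Efnb2 was higher in vCA1 (1.77 ± 0.21). For Sema5a, the dCA1 libraries ran from 173 to 437 CPM (median 303) and the vCA1 libraries from 27.0 to 114.6 (median 55.5), without overlap. Between dDG and vDG, 22 were called, 13 higher in dDG (7.79% of all genes) and 9 higher in vDG (7.52%). Epha7 (-1.84 ± 0.15), Robo3 (-2.16 ± 0.28), Epha4 (-0.95 ± 0.13), Sema5a (-1.22 ± 0.17) and Plxna4 (-0.66 ± 0.12) were again higher on the dorsal side, and Efnb2 (1.25 ± 0.19) on the ventral side.

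Both contrasts called 13 members, and all 13 in the same direction: Epha4, Epha7, Epha10, Plxna4, Robo2, Robo3, Sema5a and Slit1 dorsally higher, and Efnb2, Plxnc1, Sema3d, Sema4a and Slit2 ventrally higher. Of all 10451 genes, 8.90% were called in both with the same direction, 930 of the 949 called in both, so a shared direction is not particular to the members. The receptors Robo2 and Robo3 and the ligand Slit1 thus stood opposite to Slit2. The dentate level was 6.67 ± 0.51 in dCA1 and 6.30 ± 1.02 in dDG, and 3.77 ± 0.75 in vCA1 and 4.71 ± 0.90 in vDG, so dentate marker RNA was higher in the dorsal than in the ventral punches. Its part in these differences was not tested. In the dexamethasone animals, which are separate mice, 26 of the 27 differences between dCA1 and vCA1 had the same sign and 19 were called. The exception was Unc5a, at -0.50 ± 0.13 in vehicle and 0.04 in dexamethasone animals. All 22 differences between dDG and vDG kept their sign there, and 16 were called. The same counts over all genes were not computed, so such agreement is not shown to be particular to the members.

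**Figure D5:**
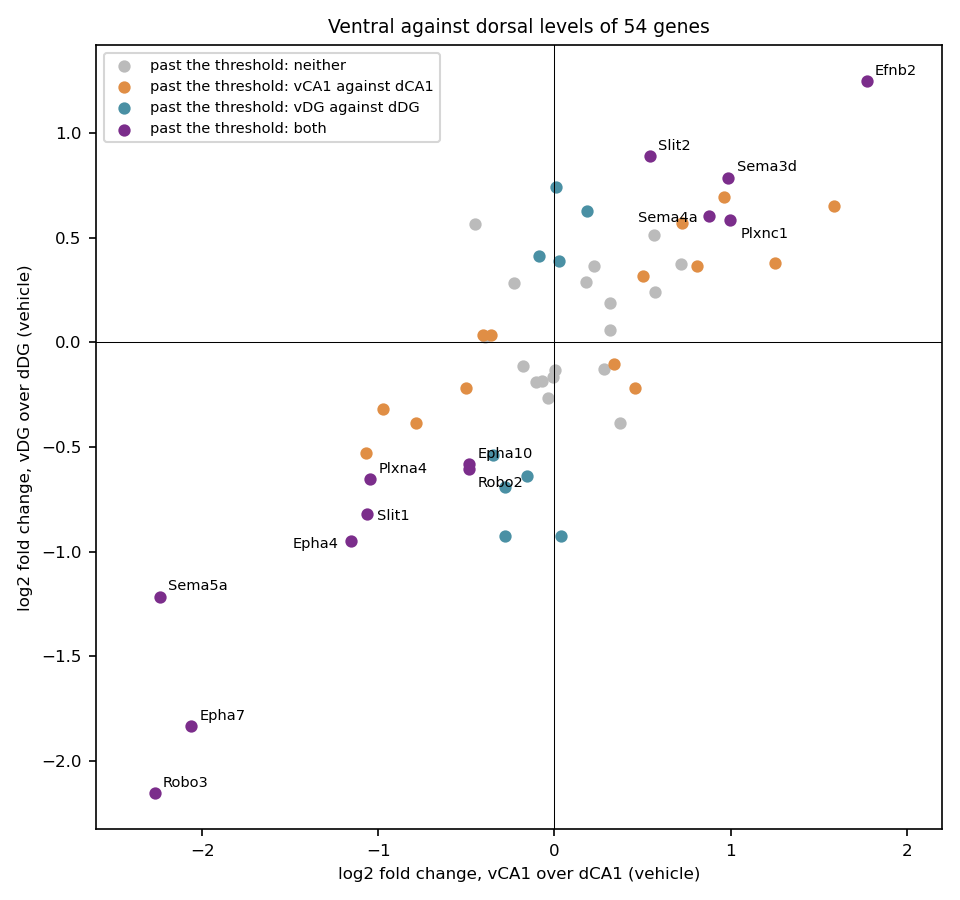
Log2 fold change of ventral over dorsal level in vehicle animals for 54 members, CA1 punches on the x axis and DG punches on the y axis, coloured by which contrast passed an adjusted p of 0.05. The 13 members called in both lie in the lower left (8) and upper right (5) corners.

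Within the dorsal and the ventral hippocampus fewer members differed. Between dCA1 and dDG, edgeR called 0 of 54 members, 8 had an unadjusted p under 0.05, and 1.89% of all genes were called. The dentate level was 6.67 ± 0.51 in dCA1 and 6.30 ± 1.02 in dDG. The 3 CA1 pyramidal cell markers summed to between 48.2 and 791.5 CPM (median 225.7) in dCA1. In dDG they summed to between 75.7 and 613.8 CPM (median 269.4). These markers did not separate the 2 punches, so the 0 calls are not a comparison of CA1 with dentate cells. Between vCA1 and vDG, 10 were called, 6 higher in vCA1 (7.16% of all genes) and 4 higher in vDG (5.34%). The cerebellar list summed to between 4.70 and 956.0 CPM (median 15.2) in these vCA1 libraries and between 8.78 and 815.1 CPM (median 23.8) in those of vDG, and the dentate level was 3.77 and 4.71. Their part in these differences was not tested. Higher in vCA1 by the smallest p-values were Plxna1 (log2 change of vDG over vCA1 -0.74 ± 0.15), Sema3e (-0.94 ± 0.22) and Efna3 (-0.61 ± 0.15), and higher in vDG were Sema5a (0.88 ± 0.19), Unc5d (0.77 ± 0.18) and Nrp2 (0.63 ± 0.16). In dexamethasone animals all 10 had the same sign and 5 were called, and Sema5a was at 0.13 there. For this contrast, too, the counts over all genes were not computed.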

How the data were processed

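Messenger RNA of each punch was made into 3′ end libraries (QuantSeq forward kit with unique molecular identifiers), per the labels' protocols. The raw counts per gene were deposited by the authors as 1 table, and the submitters' processing notes name FastQC 0.11.4, cutadapt, UMI-tools 0.5.4, STAR 2.6.0a, featureCounts 1.6.4 and mm10. The strand setting is not given in the sources used here. The authors also deposited variance-stabilised log2 values per region (DESeq2 1.30.1 in the same notes), used here only to see that 228 of the 235 libraries are listed in them. Library totals limit precision, and the floor of 3 counts covers counting error only.

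Members and lists were chosen with earlier results of these data known. Named members are those with an adjusted p under 0.05 in a treatment test, the 12 smallest and 4 largest p in the regional test, up to 6 per hippocampal contrast and up to 10 partner genes. Every other member is given with its range of regional means.

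Genes passing filterByExpr were scaled by trimmed mean of M values and tested with edgeR 4.0.16 quasi-likelihood fits in R 4.3.3. Treatment was tested in each region without covariates, as an interaction over all libraries and on sums per animal. Regional levels were tested in vehicle libraries with the animal as a term. Benjamini-Hochberg adjustment ran over all genes of a test, with a threshold of 0.05. CPM of single libraries share 1 scale, set by trimmed mean of M values over all libraries. CPM of the sums per animal are counts per 1000000 of the plain summed total, a different scale. Standard errors are the absolute log2 change divided by the square root of F. Marker lists were endothelium, mural cells, astrocytes, oligodendrocytes and their precursors, microglia, neurons, interneurons, dentate granule cells, CA1 pyramidal cells, cerebellar cells, hypothalamic peptide neurons, choroid plexus and blood. The treatment test was checked on simulated counts of the PFC comparison. DESeq2 1.42.0 and limma 3.58.1 served as alternatives. Figures used matplotlib. Animals were group-housed per the labels, and each animal is 1 replicate.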

Additional observations from a re-analysis of the deposited data

Results flagged for a closer look

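The response of Epha10 differed among the 8 regions by the interaction test (adjusted p = 2.09e-05 by edgeR), with log2 changes from 0.02 in CER and 0.10 in PVN to 0.97 in vCA1. The response of Nrp1 differed by the same test (adjusted p = 0.00106 by edgeR), with changes from -0.76 in CER to 0.10 in dCA1. Both were called under each of the 5 alternative fits of that test.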

How the results depend on the processing

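The count of members called stayed within 1.5 times its value in all alternatives except 2 comparisons. In vCA1, 7 members were called, and 2 with the dentate level as a covariate, where Sema5a changed by 0.04 and the 4 other lost members by -0.69 (Unc5b), -0.57 (Plxnb3), -0.37 (Sema4a) and -0.37 (Sema6d). Between dCA1 and dDG, 0 were called, 1 with upper-quartile scaling, 1 with plate as a factor, 1 without libraries of an RNA integrity number under 4, and 2 in dexamethasone libraries. 1 single result reversed: Unc5a between dCA1 and vCA1, at 0.036 in dexamethasone libraries. Of 830 values of named members under alternatives, 787 kept their direction and side of the threshold, 41 lost their call, 1 gained it and 1 reversed. Most of these values belong to members already called in the main fit, so a gain could hardly be counted. Members outside them did gain calls, such as Efna2 in CER and Ntng1 in PFC. Without the low-count filter, 8 members gained a call in the regional fit. In dexamethasone animals 6 gained one between dCA1 and vCA1 and 10 between dDG and vDG. DESeq2 gave 17 calls and the mean of regional differences by limma-voom 19 in place of 18 sums per animal, and 15 of those 18 were called by limma-voom, where Efna5 did not pass, Efna1 and Epha8 were below the filter, and Nrp1, Nrp2, Sema6a and Slit2 were called besides. Replicate numbers are shared between treatments but do not mark litters or cages in the labels, and deviations of same-numbered libraries correlated over 0.1 in 6 of 14 pairs in vCA1 to 12 of 14 in PFC. With a replicate block, 17 members were called in the sums, 8 in PFC, 5 each in AMY, CER, PVN and vCA1, 3 each in dCA1 and vDG, and 2 in dDG. The block lost Efna2 and Ephb2 in the sums (adjusted p = 0.0636 and 0.0572 by edgeR) and Sema5a and Sema6d in vCA1 (0.0937 and 0.0787), and gained Plxna3 in the sums, Efna2 in CER and Ntng1 in PFC. Libraries of vehicle animals correlated best with their own number in 1 of 15 cases in vDG to 8 of 15 in CER. Within punching dates and within plates, the direction of the called regional changes held in 143 of 144 levels each. Each call had 4 levels, so 4 of the 5 punching dates entered. These changes were called in the same libraries, so their direction within levels was largely set beforehand and adds no support. Median counts of a member per library limit what single regions can show: 13 members were not tested in any region.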
